A study of Arabidopsis thaliana with 8 samples.

Results

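Leaves of Arabidopsis thaliana that had received potassium bromide (KBr) were compared with leaves of untreated plants. The comparison used 2 of the 8 arrays of the series, the shoot KBr array and the shoot control array. It covered 12965 of 22746 probe sets, those with a signal of at least 100 on both arrays. A probe set is a group of short probes for a transcript on the ATH1 array, read as 1 signal. Plants were Col-0, 3 weeks old, in hydroponics. The control plants stood in the base nutrient solution and the treated plants in the same solution with 10 µM KBr for 48 h. The labels give 8 nM as the iodine left in the base solution, whereas the methods name that value as the detection limit and place the iodine under it, so it is read here as an upper limit. Each array held RNA from a pool of rosettes of 3 plants, and there was 1 array a side, so no spread between samples can be given. The other arrays held shoots given NaI or KI at the same concentration and roots of all 4 treatments. KBr served in the study as the salt that brings a halide other than iodide together with potassium.

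Bromide is a halide, like chloride and iodide, and is not counted among the essential nutrients of plants. It enters roots through transport systems for anions and reaches the leaves with the transpiration stream. The transcripts of a rosette leaf are dominated by those for photosynthesis, part of them copied from the chloroplast genome. Flavonoid and anthocyanin genes, cold-regulated genes and jasmonate-responsive defence genes are among the leaf genes whose level is known to shift most with growth conditions.

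The ratios of KBr over control signal were narrow. The median log2 ratio was 0.0044, the quartiles were -0.15 and 0.16, and 96.0% of the probe sets lay within 1.5-fold. At least 1.5-fold higher with KBr were 245 probe sets (1.89%), and at least 1.5-fold lower were 269 (2.07%). At least 2-fold higher were 18 (0.139%) and at least 2-fold lower 9 (0.0694%). The log2 ratios ran from -1.33 to 1.42, and 0 probe sets reached 4-fold. These shares are the background for every group of genes below.

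The width of the ratios followed the signal. Between a mean signal of 100 and 200 the quartiles were -0.26 and 0.18, and of 2315 probe sets 99 lay 1.5-fold or more above control and 129 as far below. From a mean signal of 3200 upwards the quartiles were -0.14 and 0.081, with 1 of 1042 at least 1.5-fold higher and 0 lower. Probe sets past 1.5-fold were therefore more frequent among dim than among bright ones, though most dim ones lay within 1.5-fold. Few of the probe sets past 1.5-fold were bright: 7 above and 4 below control exceeded a signal of 1000 in control and KBr alike.

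**Figure D1:**
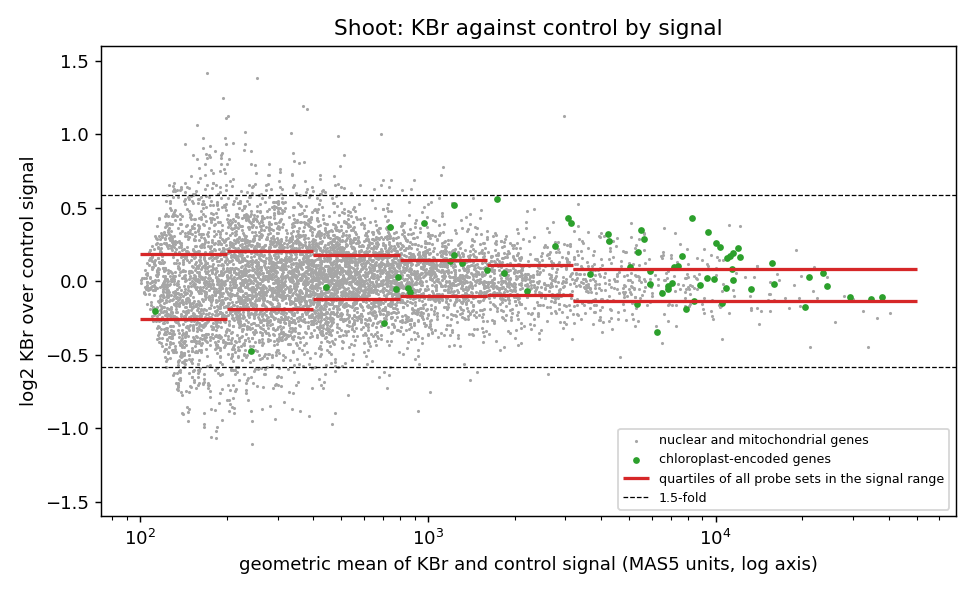
Log2 ratio of KBr over control signal in shoot (vertical axis) against the geometric mean of both signals (MAS5 units, log axis). Each point is 1 of 6929 genes, chloroplast-encoded genes in green, and red bars are the quartiles of all probe sets in 6 signal ranges. The quartiles narrow from -0.26 and 0.18 in the dimmest range to -0.14 and 0.081 in the brightest, and no chloroplast-encoded gene crosses the dashed 1.5-fold lines.

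Both arrays carried the marks of leaf tissue. RCA, which encodes Rubisco activase, had a signal of 34909 on the control and 30287 on the KBr array, against 60.6 in control root. Of the root markers EXPA7, an expansin of root hairs, was under 100 in shoot, at 36.4 and 8.32, and read 1917 in control root. PYK10, the only root marker measured in shoot, read 364 and 327 there and 8042 in control root. Lists of cell type markers were thin, with 1 mesophyll, 1 guard cell, 1 phloem and 1 root marker measured, and no measured marker of epidermis, meristem, xylem or flowers. SWEET11, a sugar exporter of phloem parenchyma, read 2150 and 1574 (-0.45), with 2125 and 2040 for NaI and KI. The array controls differed: 18 of 18 hybridisation spikes, RNAs added in fixed amounts, were higher on the KBr array, with a median log2 ratio of 0.36 and a range of 0.0021 to 0.69. Poly-A spikes were higher in 19 of 20 probe sets, with a median of 0.48. The same medians in root were 0.013 and 0.089. The ratio of 3' over 5' signal of actin, a sign of RNA quality, was 9.35 in control and 12.6 in KBr for the first probe sets and 1.91 and 2.03 for the second. That of GAPDH was 1.51 and 1.595, and 0.943 and 1.07. The part of these array differences in the ratios below was not tested.

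Genes were named where a probe set belonged to 1 gene, which held for 6992 of the probe sets tested and gave 6929 genes, 1006 of them with a symbol beyond the locus code. Over these genes the median log2 ratio was 0.0037, with 146 at least 1.5-fold higher and 160 lower. Groups of related genes are described by their medians and counts, since 1 array a side allows no test. In whole shoots a lower signal can come from fewer cells of a type or from less RNA in each cell, and these cannot be told apart.

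The flavonoid and anthocyanin genes had the lowest median of the lists with at least 5 measured members. These enzymes build the phenylpropanoid pigments and sunscreens of leaves. The median log2 ratio was -0.30, with 4 of 5 measured genes below 0 and 1 of them at least 1.5-fold lower. UF3GT, a flavonoid glycosyltransferase also named UGT79B1, read 488 in control and 265 in KBr, a log2 ratio of -0.88, and 365 and 519.6 with NaI and KI. AT4G14090 read 656 and 453 (-0.53), and 896 and 1048 with the iodide salts. DFR, dihydroflavonol reductase at the entry to anthocyanins, read 674 and 548 (-0.30), and 927 and 1009 with the iodide salts. In all 3 genes the KBr array was the lowest of the 4 shoot arrays. UGT78D2, a flavonoid glucosyltransferase, read 492 and 414 (-0.25), again the lowest on the KBr array. UGT78D1, which attaches rhamnose to flavonols, was the exception, at 456 and 610.2 (0.42). Among all 6929 genes the KBr array was the lowest of the 4 in 1652. The list median over the same control array was 0.45 for NaI and 0.47 for KI, and it was -0.67 for KBr over NaI and -0.88 for KBr over KI. UF3GT passed 1.5-fold at a signal where 2.65% of probe sets were at least that much higher and 3.21% at least that much lower.

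**Figure D2:**
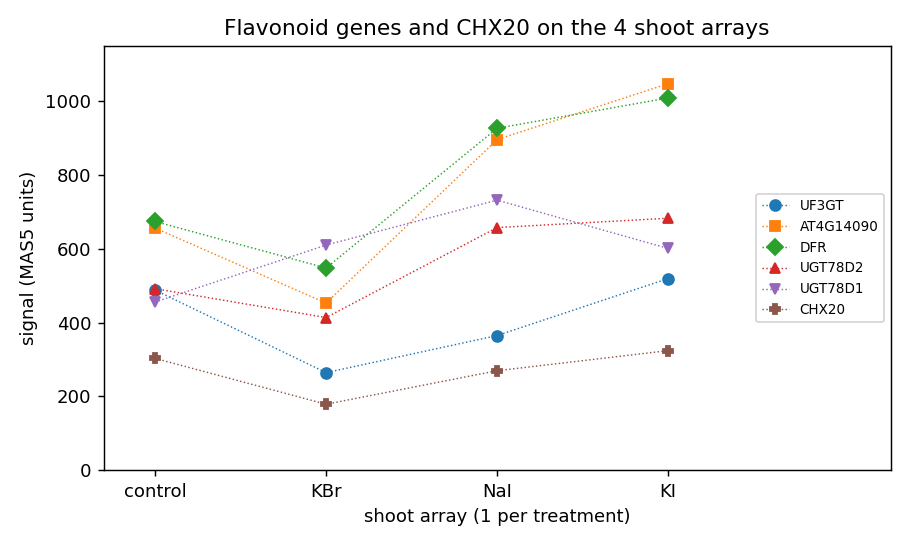
Signal in MAS5 units (vertical axis, from 0) of the 5 measured flavonoid genes and of CHX20 on the 4 shoot arrays, 1 array per treatment, with dotted lines joining the points of a gene. On the KBr array CHX20 and 4 of the 5 flavonoid genes have their lowest signal, UF3GT 265 and CHX20 179, while UGT78D1 reads 610.2 there and has its lowest signal in control.

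Cold and dehydration genes came next, with a median of -0.20 over 7 measured members, of which 5 were below 0. COR15A and COR15B, chloroplast proteins that stabilise membranes in the cold, were among the brightest transcripts of the leaf. COR15A read 24960.0 in control and 18279 in KBr (-0.45), and COR15B 15404 and 13389 (-0.20). COR47, a dehydrin, read 10542 and 8936 (-0.24). These 3 genes were lower than control on each of the other shoot arrays too, COR15A at 19653 and 18474 with NaI and KI. The only member past 1.5-fold was the dim STZ, a zinc finger repressor of stress responses, at 277 and 166 (-0.74), with 469 and 268 on the iodide arrays. COR27, RD2 and the dehydrin LTI30 lay at -0.025, 0.0044 and 0.086. The NaI and KI arrays gave list medians of -0.13 and -0.047 over the same control.

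Genes of flowering time and floral identity had a median of -0.20 with 0 of 5 measured members past 1.5-fold. The promoters of flowering FY and LD, both of the autonomous pathway, read 335 and 291 (-0.21) and 326 and 284 (-0.20). SNZ, an AP2-type repressor of flowering, read 177 and 154 (-0.20). The clock-linked gene GI was the brightest of the list and read 2287 and 2290.2 (0.0018). AGL24, a MADS-box promoter of flowering, went the other way, at 219.8 and 265 (0.27). The central genes of the photoperiod pathway other than GI were not among those measured here.

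The lists of nuclear photosynthesis genes were slightly below control, with 0 of their measured members past 1.5-fold. NdhS, a nuclear gene of the chloroplast NDH complex that was in no list, did pass it, at 3262 and 2101 (-0.63). Chlorophyll and carotenoid synthesis had a median of -0.10 over 5 genes. CHLM, a methyltransferase of chlorophyll synthesis, read 7295 and 6544 (-0.16), and PORB, protochlorophyllide reductase, 13608 and 12692 (-0.10). GSA1, at the start of the tetrapyrrole pathway, was the only one above 0, at 1844 and 1940.2 (0.073). Nuclear photosystem subunits had a median of -0.087, from PSAN of photosystem I at 19146 and 16887 (-0.18) to PSB27 of photosystem II at 10719 and 13880.0 (0.37). The other 3 subunits lay between -0.12 and 0.026. With NaI and KI the chlorophyll and carotenoid list stood at -0.48 and -0.27 over the same control, and the control array was the highest of the 4 for 4 of its 5 genes. Against the mean log2 of the other 3 shoot arrays its KBr median turned to 0.12 and that of the photosystem subunits to 0.12.

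Of the lists of factors and enzymes with low medians, bZIP transcription factors stood at -0.098 over 8 genes, NPF transporters at -0.098 over 6 and cytochrome P450 enzymes at -0.082 over 10. The bZIP genes were spread widely, and 1 of 8 was at least 1.5-fold lower. bZIP44 read 314 and 179 (-0.81), with 224 and 223 on the iodide arrays. The membrane-bound stress factors BZIP60 and BZIP28 lay at 0.18 and 0.30, while BZIP17 of the same kind lay at -0.41. The P450 genes measured were 10 of 245 on the list. All except CYP78A9 were of the CYP71B group, so the median stands mostly for that group. None of the NPF or P450 genes measured passed 1.5-fold. GTR1 and GTR2, importers of glucosinolates, read 1456 and 1281 (-0.18) and 628 and 701 (0.16). CYP71B23 was the lowest P450, at 373 and 263 (-0.50), with 762 and 585 on the iodide arrays.

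Halide, potassium and anion transport, the list closest to the salt given, could hardly be read. Of its 87 genes 6 had a probe set of their own, all of the CHX family of cation/proton exchangers, and 1 was measured on both arrays. CHX20, which acts in guard cells in osmoregulation, read 303 in control and 179 in KBr (-0.76), against 270 with NaI and 324 with KI. It was lowest on the KBr array. FMA, the only guard cell marker measured, read 205 and 210.4 (0.040). Whether the share of guard cells differed between the arrays was not tested. CHX16 was under 100 in control and was not part of the ratios, at 71.8 against 165, 192 and 199.6 with KBr, NaI and KI. No gene of the halide methyltransferase list had a probe set of its own.

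**Figure D3:**
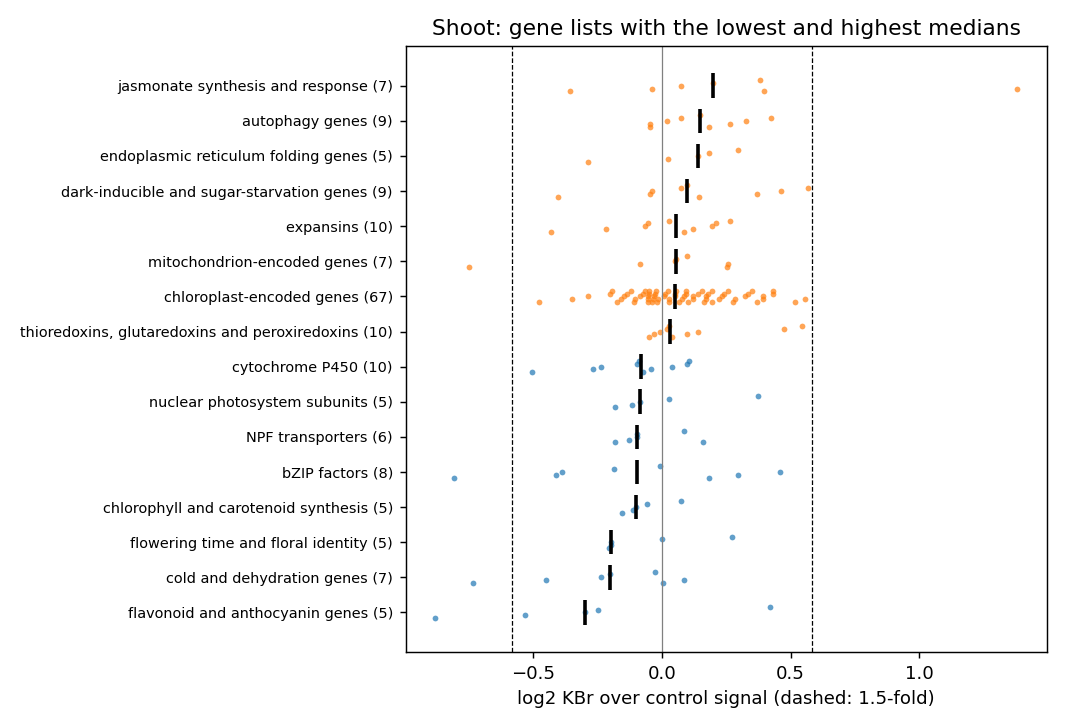
Log2 ratio of KBr over control signal in shoot (horizontal axis) for each measured gene of the 8 lists with the lowest and the 8 with the highest medians, with the number of measured genes in brackets. Points are genes, black bars are list medians and dashed lines 1.5-fold. The list medians run from -0.30 for flavonoid and anthocyanin genes to 0.20 for jasmonate genes, and most points of every list lie inside the dashed lines.

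At the upper end the jasmonate list had a median of 0.20 over 7 genes, 5 of them above 0. Jasmonate is the hormone of wounding and of defence against chewing insects and necrotrophic fungi. PDF1.2b, an antifungal plant defensin, had the largest log2 ratio of any list member, at 158 and 412 (1.38), with 1016 and 437 for NaI and KI. Its probe set may also bind near-identical defensin copies, and PDF1.2, the close relative on another probe set, read 423 and 446 (0.075). The transcription factors MYC3 and MYC4, which switch on jasmonate responses, read 329 and 433 (0.40) and 163 and 187 (0.20). The thionin THI2.1 lay at -0.36 and THI2.2 at 0.38, both dim. The acyl-CoA ligase OPCL1 of jasmonate synthesis, the brightest of the list, read 844 and 822 (-0.037). Without PDF1.2b the median of the other 6 was 0.14. Over the same control array the list stood at 0.73 with NaI and 0.39 with KI, so the KBr median lay between control and the iodide arrays. Against the mean log2 of the control, NaI and KI arrays it was -0.074.

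Autophagy genes had a median of 0.15, with 7 of 9 above 0 and 0 past 1.5-fold. Most of them encode ATG8, the small protein that is coupled to the growing autophagosome membrane. ATG8B read 172 and 231 (0.42), APG8A 451 and 565 (0.33) and ATG8E 161 and 194 (0.26). The bright ATG8F read 2457 and 2789 (0.18) and APG8H 1794 and 1889 (0.074). ATG3, the enzyme that couples ATG8 to lipid, and ATG8C were at -0.048 and -0.047. The list medians with NaI and KI were 0.42 and 0.30 over the same control, and -0.27 and -0.19 for KBr over NaI and KI. For 5 of the 9 genes the control array was the lowest of the 4. Against the mean log2 of the control, NaI and KI arrays the median for KBr turned to -0.155.

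The list of endoplasmic reticulum folding genes had a median of 0.14 over 5 genes. The transcription factors BZIP28 and BZIP60, which it also held, were on top. Of its other members, PDIL5-1 lay at 0.14 and ATERDJ3B at 0.022. The calreticulin CRT1b was at the bottom, at 3552 and 2912 (-0.29). Dark-inducible and sugar-starvation genes had a median of 0.096 over 9. EXO, a gene of brassinosteroid-dependent growth, read 338 and 500.3 (0.57), just inside 1.5-fold, and D2HGDH and MCCA, enzymes that break down lysine and branched-chain amino acids, read 265 and 366 (0.46) and 297 and 384 (0.37). The sugar exporter SWEET1 went the other way, at 830.0 and 627 (-0.41). Expansins, which loosen cell walls, had a median of 0.056 over 10, from EXLB1 at -0.43 to EXPA8 at 0.27. Thioredoxins, glutaredoxins and peroxiredoxins had one of 0.032 over 10, from GRXC2 at -0.051 to GRXC1, dim at 125 and 183, at 0.55. In none of these 4 lists did a gene pass 1.5-fold. Against the mean log2 of the other 3 shoot arrays the medians turned to -0.156 for folding, -0.086 for dark-inducible genes and -0.17 for expansins.

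Mitochondrion-encoded genes had a median of 0.054 over 7. The brightest, ccb382, read 1532 and 1638 (0.096). orfX was the only one past 1.5-fold, at 192 and 114 (-0.75), and was low on the iodide arrays as well, at 133 and 128.

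Chloroplast-encoded genes formed the largest group. They encode core subunits of the photosynthetic complexes and part of the machinery that expresses them. Of 69 on the array 67 were measured, with a median control signal of 6964. The median log2 ratio was 0.052, the quartiles were -0.053 and 0.19, 40 genes were above 0 and 0 passed 1.5-fold. The 2 genes not measured, ndhF and rps14, were under 100 on the KBr array. In the brightest range, from a mean signal of 3200, 46 chloroplast-encoded genes had a median of 0.038 with 58.7% above 0, and 996 other probe sets a median of -0.032 with 42.5% above 0. The distance between both medians was small beside the range of the chloroplast genes themselves. NaI and KI gave list medians of 0.028 and 0.11 over the same control.

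By complex, photosystem II stood at 0.094 over 15 genes and photosystem I, with its assembly factors ycf3 and ycf4, at 0.095 over 7. The NDH complex, which returns electrons around photosystem I, stood at 0.052 over 9 genes and the ribosomal proteins at -0.0042 over 14. The cytochrome b6f complex and the ATP synthase, 6 genes each, were at -0.063 and -0.036. The 4 subunits of the plastid RNA polymerase had the highest median, 0.20. rpoC1 read 1430.0 in control and 2103 in KBr (0.56), with 1973 and 1782 on the iodide arrays, whereas rpoB was close to the limit of 100, at 120.3 and 105 (-0.20). psbN, needed for assembly of photosystem II, read 1031 and 1476 (0.52), and psbE, a cytochrome b559 subunit, 7157 and 9644 (0.43). accD, the plastid subunit of acetyl-CoA carboxylase, read 2650.1 and 3571 (0.43). At the other end, petD of cytochrome b6f read 286 and 205 (-0.48), with 207 and 220.3 on the iodide arrays, and ndhJ read 7061 and 5544 (-0.35). Close to 0 lay rbcL, the large Rubisco subunit, at 3607 and 3736 (0.050), and atpB of the ATP synthase at 39391 and 36589 (-0.11).

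**Figure D4:**
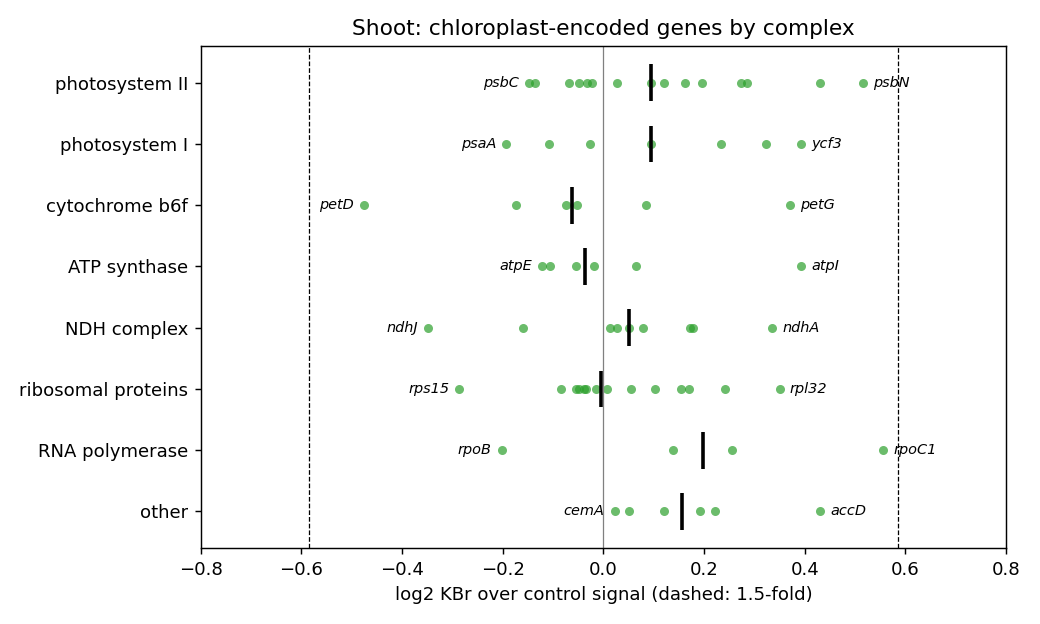
Log2 ratio of KBr over control signal in shoot (horizontal axis) for 67 chloroplast-encoded genes, grouped by complex. Points are genes, black bars are group medians, dashed lines are 1.5-fold, and the lowest and highest gene of each group is named. Ratios run from -0.48 for petD to 0.56 for rpoC1, and each group other than the last has genes on both sides of 0.

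Chloroplast genes are transcribed in clusters, and neighbours in a cluster did not always share a ratio. In the cluster from ndhH to ndhD, which holds psaC as well, 7 of 7 genes were above 0, from 0.027 for ndhG to 0.34 for ndhA, with a median of 0.17. For 5 of the 7 the control array was the lowest of the 4. In the psbB cluster psbB, psbT and psbH lay at 0.094, 0.12 and 0.28, whereas petB and petD lay at -0.17 and -0.48. In the rpoB cluster rpoB was at -0.20, rpoC1 at 0.56 and rpoC2 at 0.14. The 3 genes of the ndhC cluster ran from 0.014 for ndhC to -0.35 for ndhJ. The clusters were chosen for description with the values known.

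Families of genes with a shared symbol were read in the same way, 12 of them with at least 8 measured members. The prenylated Rab acceptors, PRA, small membrane proteins of vesicle traffic, had the lowest median, -0.21 over 10 genes, of which 8 were below 0. PRA1.F1 read 288 and 155 (-0.89), PRA1.E 468 and 317 (-0.56) and PRA7 514 and 404 (-0.35). The control array was the highest of the 4 in 6 of the 10, and the medians with NaI and KI were -0.26 and -0.23 over that control. The IQD calmodulin-binding proteins had the highest median, 0.17 over 8 genes, with 7 above 0 and 0 past 1.5-fold. IQD24 read 527 and 677 (0.36), IQD28 237 and 292 (0.30) and IQD31 1109 and 1270.3 (0.20). The medians of the other 10 families lay between -0.098 and 0.12. The UDP-glycosyltransferases with a UGT symbol, 20 genes with a median of -0.017, held 2 members past 1.5-fold, both lower. UF3GT (-0.88), described above, goes by another symbol and was not counted here. UGT80B1, a sterol glucosyltransferase also known as TT15, read 1321 and 783 (-0.76), with 603 and 653 on the iodide arrays, and UGT85A4 read 194 and 121 (-0.68), with 188 and 178. UGT80B1 was thus low on all 3 arrays with a salt and UGT85A4 on the KBr array.

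Among single genes with a signal of at least 200 on both arrays, the 10 with the largest ratios in each direction reached log2 1.19 and -0.97. Most of them are known here by their locus code alone. AT1G64330 read 244 and 558 (1.19), AT1G07840 253 and 570.0 (1.17) and AT3G05340 236 and 474 (1.01), and with NaI and KI these 3 genes stayed between 259 and 389. The KBr array was the highest of the 4 for each of them. AT5G58420 was the brightest gene past 2-fold, at 2012 and 4374 (1.12), but read 3760.0 and 3878 with NaI and KI. AT4G22490 (487 and 974) and AT1G01240 (251 and 459) likewise read 1086 and 1226, and 616 and 641, on the iodide arrays. In these 3 genes the control array was the low one. AT1G22630 (346 and 684), AT5G42960 (381 and 689), AT5G46230 (257 and 453) and AT3G51720 (281 and 493) completed the 10.

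On the lower side AT3G51100 read 651 and 331 (-0.97), with 380.3 and 499 on the iodide arrays. AT1G50510 read 406 and 212 (-0.94) and AT3G16990 378 and 209.6 (-0.85), and both were above control with NaI and KI, at 439 and 463 and at 517 and 439. CHC1, a subunit of SWI/SNF chromatin remodelling complexes, read 647 and 348 (-0.90), with 545 and 787 on the iodide arrays. AT3G61770, the brightest of the 10, read 1257 and 683 (-0.88), and 695 and 563 on the iodide arrays, so that here the control array stood apart. AT3G12870 (422 and 238) showed the same order, with 236 and 244. AT1G74530 (529.6 and 281), AT3G44020 (456 and 249), AT4G28300 (687 and 402) and UF3GT made up the 10. Of the 9 probe sets at least 2-fold lower, 4 belonged to 1 gene each, and the others are not named. The 4 genes, chosen after their values were seen, were AT2G20950 (360.0 and 167), AT4G32560 (265 and 127), AT4G15020 (254 and 122) and AT4G11300 (261 and 128). All 4 were under 200 on the KBr array.

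**Figure D5:**
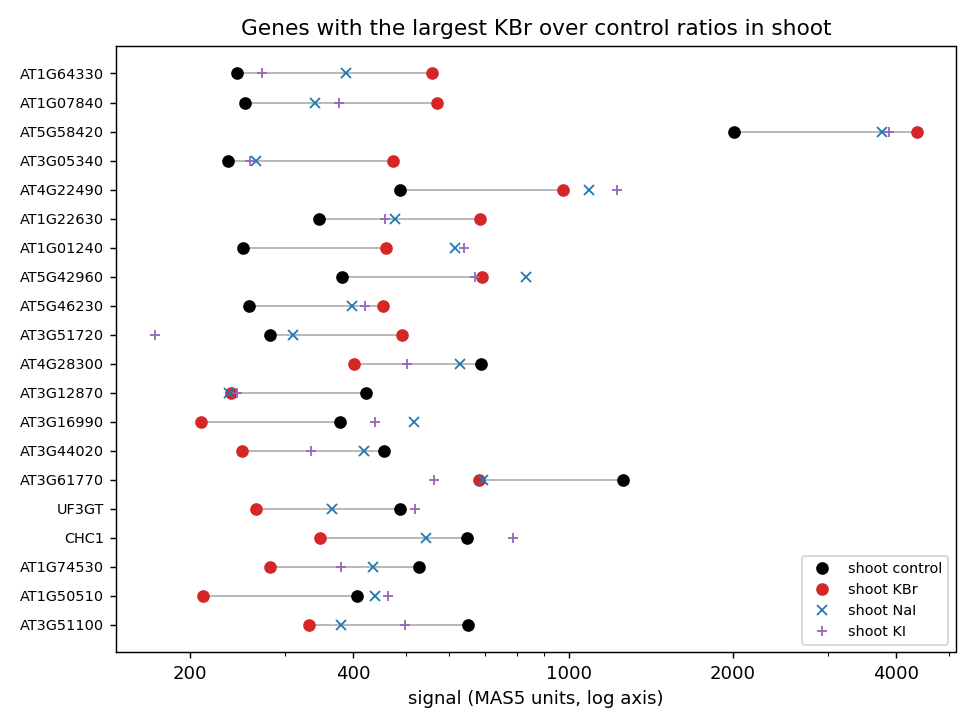
Signal in MAS5 units (log axis) of the 20 genes with the largest KBr over control ratios in shoot among those with at least 200 on both arrays. Each row is a gene, with filled points for control and KBr joined by a line and crosses for NaI and KI. AT5G58420 and AT3G61770 show control apart from the other 3 arrays, while AT1G64330 and AT1G50510 show KBr at the edge.

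Which array stood apart was counted over 12544 probe sets that reached 100 on all 4 shoot arrays. The KBr array was at least 1.5-fold above each of the other 3 in 21 probe sets and at least 1.5-fold below each in 48. The same counts were 25 and 85 for the control array, 49 and 44 for NaI and 77 and 71 for KI. The KBr array thus stood alone in fewer probe sets than the control array did in either direction. Over the 245 higher probe sets the median log2 ratio to control was 0.68 for KBr, 0.60 for NaI and 0.51 for KI, and over the 269 lower ones -0.70, -0.39 and -0.31. These ratios share the control array, on whose reading the probe sets were chosen. Against control, shoots with KBr had 514 probe sets past 1.5-fold in either direction, 3.96% of those tested, compared with 13.2% for NaI and 14.1% for KI. Between the NaI and KI arrays the share was 5.13%.

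The shoot ratios were set beside those of root, which come from other arrays, for 10993 probe sets measured in both tissues. Across probe sets the correlation of both log2 ratios was -0.024 by Pearson and -0.027 by Spearman. With KBr, 242 root probe sets (1.79%) lay 1.5-fold or more above control and 398 (2.94%) below. Of 202 probe sets higher in shoot and measured in both tissues, 2 were also higher in root, 0.990% of the shoot and 1.504% of the root set. Of 210 lower in shoot, 8 were lower in root, 3.81% of the shoot and 2.46% of the root set. In the opposite direction, 8 of the 202 were at least 1.5-fold lower in root and 3 of the 210 at least 1.5-fold higher. Of the 10993 probe sets measured in both tissues, 133 were at least 1.5-fold higher and 325 lower in root, beside the 202 and 210 in shoot. The 1.79% and 2.94% given above refer to a larger set, the 13525 probe sets tested in root. By list, the median in root was 0.22 for the jasmonate genes measured there (3 genes), 0.038 for autophagy and -0.090 for cold and dehydration genes. These lists kept the sign of their shoot median. Other described lists had the opposite sign in root: expansins at -0.16, flowering at 0.10 and chlorophyll and carotenoid synthesis at 0.058.

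Genes with more than 1 probe set gave the only repeat within an array. For 63 such genes, the ratios of the first and second probe set correlated at -0.062 by Pearson and -0.065 by Spearman, over genes that lie mostly within 1.5-fold. The probe sets of a gene differed by a median of 0.30 on the log2 scale and by up to 1.19. In 6 genes a probe set passed 1.5-fold, and in 0 of them did both pass in the same direction. For these 6 genes the second probe set did not repeat the ratio past 1.5-fold.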

How the data were processed

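The authors hybridised shoot RNA to ATH1 arrays with a 3' IVT labelling kit and computed signals with MAS5, whose settings the sources used here do not give. What was deposited is an intensity in linear units, whose mean without the highest and lowest 2% was 499.8 on both arrays. Log2 ratios of KBr over control were taken from the deposited intensities with no further normalization, for probe sets of at least 100 on both arrays, leaving out 64 Affymetrix controls. Genes came from the platform table and RefSeq (TAIR10.1), used for names only: 13513 probe sets had 1 gene, 13436 of these in RefSeq. Probe sets of a gene were averaged on the log2 scale.

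Members and lists were chosen with earlier results of these data known. Of 89 gene lists 26 had at least 5 measured members. The 8 lists with the highest and the 8 with the lowest medians were described, along with the transport, methyltransferase, flowering and marker lists. The naming rule allowed any member of lists of up to 12; for several such lists only some members are shown, chosen with their values known, as the highest, lowest or best-known ones. It further took up to 8 members past 1.5-fold of longer lists; 3 members per symbol family; and the 10 largest ratios in each direction at signals of at least 200. Named outside that rule, with values known, were single chloroplast-encoded genes, the genes at least 2-fold lower, CHX16 and those listed under other observations. The thioredoxin list's symbol pattern also matched 8 measured genes of other families, which were removed after their values were seen. The counting step was tested on simulated data, with changes of 4-fold put in and counted at 2-fold. That setting does not bear on how reliable the counts at 1.5-fold are. With 1 array a side no p-value was computed. Analyses used Python 3.11.15, numpy 2.4.6, pandas 2.3.3, scipy 1.17.1, statsmodels 0.14.6 and matplotlib 3.10.9.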

Additional observations from a re-analysis of the deposited data

How the results depend on the processing

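The counts of probe sets past a fold depended on the signal minimum. They are given in the order 1.5-fold higher, 1.5-fold lower, 2-fold higher and 2-fold lower, against 245, 269, 18 and 9 in the report. A minimum of 50 on both arrays gave 423, 691, 40 and 85, one of 200 gave 113, 86, 6 and 1, and one of 500 gave 26, 12, 2 and 0. A minimum of 100 on at least 1 array gave 413, 698, 67 and 191, and no minimum gave 2134, 4549, 1300 and 2971. A pseudocount of 50 gave 125, 113, 6 and 2. Probe sets with 1 gene alone, which are fewer by construction, gave 149, 163, 11 and 4. The mean log2 of the control, NaI and KI arrays as the baseline gave 9 and 37 past 2-fold. Median centring, quantile normalization and removal of the lowess trend kept each count within 1.5 times. At 1.5-fold, higher exceeded lower with a minimum of 200 or 500, with the pseudocount and with the lowess trend removed (259 and 253), and lower exceeded higher under the other alternatives, by 361 to 193 with the mean of 3 arrays as the baseline. At 2-fold lower exceeded higher with a minimum of 50, of 100 on at least 1 array, with none and with that baseline.

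Of 380 list and family medians under the alternatives, 336 moved by less than 0.1 and 37 by more, some of them across 0. Of the medians at least 0.1 in size 7 changed sign. Families held only genes that passed the signal minimum of the report, so looser minima could not change their medians. These fixed values are among the 336 and say nothing about stability. With no minimum the UDP-glycosyltransferase family stayed at 20 genes and -0.0169, while the list of that name went to 48 genes and -0.1623. With the mean of 3 arrays as the baseline the signs turned for autophagy (-0.155), endoplasmic reticulum folding (-0.156), jasmonate (-0.074) and chlorophyll and carotenoid synthesis (0.12). With a minimum of 500 they turned for flowering (0.0018, 1 gene), jasmonate (-0.037, 1 gene) and the SEC family (-0.035, 5 genes). The flavonoid median stayed between -0.65 and -0.28, though with 1 gene left at the strictest minimum. The cause of these changes was not tested. The planned count of promoter motifs was not run. No paired analysis was possible because each group has 1 array and the labels carry no replicate numbers. The single array a side, and not the signal alone, limits every value.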

Other observations

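Genes with a symbol that belonged to no list, were at least 1.5-fold apart and had signals of at least 200 on both arrays numbered 8, and they are named here with their values known. On the lower side, beside CHC1, NdhS was the brightest. It encodes a nuclear subunit of the chloroplast NDH complex and read 3262 in control and 2101 in KBr (-0.63), with 2516 and 2121 for NaI and KI. The cyclophilin CYP71 read 511 and 308 (-0.73), with 413 and 496 on the iodide arrays. IKU1, known for its role in endosperm growth, read 400.5 and 264 (-0.60), with 212 and 275.

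On the higher side CCT2, an enzyme of phosphatidylcholine synthesis, read 269 and 469 (0.80), with 427 and 421 for NaI and KI. AtSec20, named for a SNARE of traffic between the Golgi and the endoplasmic reticulum, read 332 and 538 (0.70), with 404 and 359. 3xHMG-box2, a DNA-binding protein with HMG boxes, read 463 and 728 (0.65), with 651 and 596. The cellulose synthase-like gene ATCSLC08 read 216 and 355 (0.72), with 276 and 376. The KBr array was the lowest of the 4 shoot arrays for NdhS, CHC1 and CYP71, and the highest for CCT2, AtSec20 and 3xHMG-box2. For NdhS the KI array, at 2121, was almost as low as the KBr array, at 2101, with control at 3262.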
